A study of Mus musculus with 8 samples.

Results

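The adipogenic transcription factors described here are 10 genes, Cebpa, Cebpb, Cebpd, Klf15, Klf4, Ebf1, Zfp423, Stat5a, Gata2 and Gata3. They form a set by function, named with earlier results of these data known, and their probes were then taken by annotation alone. Every non-control probe whose design annotation names a RefSeq transcript of one of these genes was taken, which gave 12 probes, 3 for Zfp423 and 1 for each of the others. The arrays carried 55681 gene probes, of which 26056 could be named, for 19752 genes.

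Gonadal white fat of mice lacking Rap1 in the whole body (Rap1-/-, 4 arrays) was compared with that of wild-type mice (WT, 4 arrays). All were females 10 weeks old on a mixed C57BL6/129SV background. Rap1, encoded by Terf2ip, is a shelterin protein that binds telomeres and also sites within chromosomes. The null allele was obtained from Rap1 flox/flox mice crossed with EIIa-cre mice, and the Cre transgene was afterwards bred out, so the deletion was constitutive and not restricted to fat cells. Each array was hybridised in 1 colour, and the 4 arrays of a genotype are given as biological replicates. Each value below is a log2 signal relative to the 75th percentile of its own array, on which a difference of 1 is a doubling. Member probes were not set against each other in level, because probes differ in how strongly they bind. The summed signals of markers add the linear signals of several probes, so the brightest probes weigh most in them.

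Fat cell differentiation runs through a cascade of transcription factors. C/EBPb and C/EBPd appear early after the hormonal stimulus and induce C/EBPa and PPARg, which maintain each other and switch on the genes of the mature fat cell. KLF4, STAT5A, EBF1 and the zinc finger protein ZFP423 act upstream of or beside that step, KLF15 rises late and also drives amino acid breakdown genes, and GATA2 and GATA3 hold precursors in the undifferentiated state.

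Sequences just before a transcript start are shown for Cebpa, the terminal factor of the cascade, for Cebpb, an early one, and for Klf15, a late one. They are the 250 bases before the annotated start in RefSeq (build GRCm38.p6), all on the plus strand. The Klf15 window belongs to an internal transcript start and lies within the bounds RefSeq gives for the gene, while the windows of Cebpa and Cebpb end just before the gene's first base. The capitals mark matches, on either strand, to GGGCGG (the GC box), CCAAT (bound by NF-Y), TATAAA (the TATA box), TTAGGG (the telomere repeat), TGACGTCA (the cAMP response element), TTGCNNAA (a C/EBP site), TTCNNNGAA (a STAT palindrome) and AGATAA (a site of Gata2 and Gata3 proteins), and neighbouring matches run together.
Cebpa, chr7:35119043-35119292: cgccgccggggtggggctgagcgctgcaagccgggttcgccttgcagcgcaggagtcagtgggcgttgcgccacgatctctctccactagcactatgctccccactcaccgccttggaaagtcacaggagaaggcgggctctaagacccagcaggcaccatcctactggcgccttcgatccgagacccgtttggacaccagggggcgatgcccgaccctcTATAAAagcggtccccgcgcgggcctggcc
Cebpb, chr2:167688665-167688914: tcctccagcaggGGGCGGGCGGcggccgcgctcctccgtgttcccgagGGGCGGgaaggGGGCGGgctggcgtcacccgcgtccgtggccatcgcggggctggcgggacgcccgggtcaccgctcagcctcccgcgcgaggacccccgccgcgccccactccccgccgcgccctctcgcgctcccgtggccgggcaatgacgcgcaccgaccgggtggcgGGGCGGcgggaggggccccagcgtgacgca
Klf15, chr6:90462326-90462575: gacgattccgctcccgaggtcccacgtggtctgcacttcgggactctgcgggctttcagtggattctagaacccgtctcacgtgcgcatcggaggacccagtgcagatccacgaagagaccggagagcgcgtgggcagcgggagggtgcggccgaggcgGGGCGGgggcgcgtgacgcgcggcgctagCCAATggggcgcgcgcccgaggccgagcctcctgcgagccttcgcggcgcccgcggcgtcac
The Cebpa sequence held a TATAAA 30 bases before the start and no other match, the Cebpb sequence held 5 GGGCGG, and the Klf15 sequence held 1 GGGCGG and 1 CCAAT. Their G and C content was 66.4%, 81.6% and 72.0%, against a median of 52.4% over the 32851 promoters of the same length. RefSeq gave 13 such promoters for 9 of the 10 genes. GGGCGG stood in 9 of the 13, against 32.7% of all promoters, CCAAT in 2 against 33.8%, TATAAA in 1 against 12.4% and TTGCNNAA in 1, at Zfp423, against 9.56%. TTAGGG was in 0 of the 13 against 9.32% of all promoters, TGACGTCA in 0 against 1.55%, TTCNNNGAA in 0 against 7.02% and AGATAA in 0 against 9.99%. These letters are a description of the windows, and binding was not measured on these arrays.

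The 75th percentile of the arrays lay between 302 and 497 intensity units, 59.7% to 65.2% of the spots were well above background, and no spot was saturated. Only probes detected well above background on 4 or more of the 8 arrays were tested, which kept 33982. The targeted gene gave the only 2 calls of limma at an adjusted p under 0.05 (0.00589% of the probes tested): 1 Terf2ip probe was well above background on 4 of 4 WT and 0 of 4 Rap1-/- arrays, and the other read higher in Rap1-/- by 2.38. The arrays lay on 2 slides, replicates 1 and 2 of both genotypes on the first and replicates 3 and 4 on the second. On each slide WT occupied positions 1 and 2 and Rap1-/- positions 3 and 4, so position and genotype cannot be told apart. Scaling to the E1A spike-in controls moved every probe by the same amount, and with it the median difference of all probes from -0.04 to 0.19. A difference under that scaling is therefore read relative to 0.19.

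All 12 member probes were well above background on all 8 arrays, so every member was measured in both genotypes and none was removed by the filter. No member probe passed the test between the genotypes. limma called 0 of 12 at an adjusted p under 0.05, and 1 of 12, the Cebpa probe, had an unadjusted p under 0.05, against 4.83% of all probes tested. The genotypes did not overlap for 0 of the 12, against 3.16% of all probes. The mean was lower in Rap1-/- for 8 of the 12, against 59.6% of all probes, and the median difference of the 12 was -0.03 against -0.04 over all probes. The split moved with the scaling for the members and for all probes: 5 of the 12 were lower under median scaling against 44.3% of all probes, 2 under the E1A scaling against 15.1%, 6 under quantile normalisation against 49.2%, 6 in the deposited values against 49.2% and 6 with normexp background correction against 69.1%. Relative to the median of all probes, 5 of the 12 were lower under the 75th percentile, median and E1A scalings alike. With 4 arrays against 4, the smallest p that the exact permutation test can give is 0.0286, and no member reached it.

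**Figure D1:**
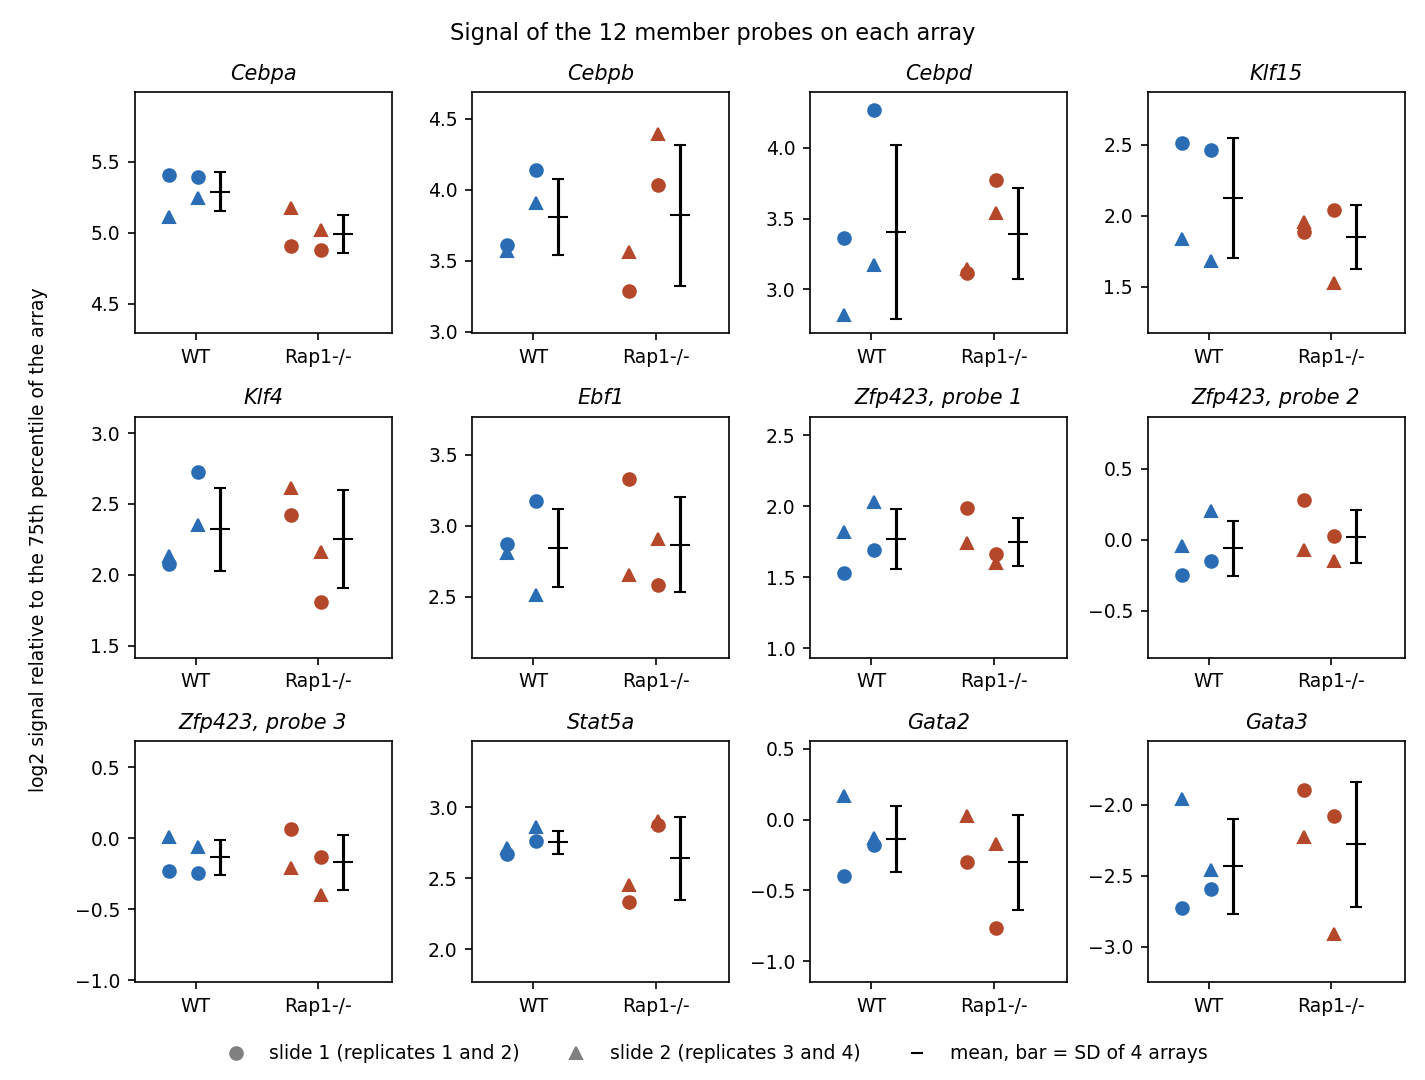
Log2 signal relative to the 75th percentile of the array (vertical axis, spanning the same 1.7 units in every panel) for the 12 member probes in the 4 WT and 4 Rap1-/- arrays. Points are arrays, with circles for slide 1 and triangles for slide 2, and black bars are the mean and SD of 4 arrays; the 2 genotypes overlap in every panel, most narrowly for Cebpa.

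Cebpa encodes C/EBPa, which with PPARg sustains the mature fat cell. In Rap1-/- its signal was 4.91, 4.88, 5.17 and 5.02 in replicates 1 to 4, and in WT it was 5.41, 5.40, 5.11 and 5.24. All 4 Rap1-/- arrays were below the WT mean, and the genotypes overlapped through WT replicate 3, which lay below Rap1-/- replicate 3. The mean of Rap1-/- was 4.99 ± 0.13 and that of WT was 5.29 ± 0.14 (SD, n = 4 arrays), a difference of -0.30 ± 0.11 (SE, 95% interval -0.54 to -0.05), or 1.23-fold lower. The difference did not pass limma's test after adjustment over all probes (unadjusted p = 0.0244, adjusted p = 0.897), and the exact permutation test gave p = 0.0571, two-sided. It was -0.51 within slide 1 and -0.08 within slide 2, and -0.07 under the E1A scaling, where the median of all probes was 0.19.

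Pparg, the partner of Cebpa in maintaining the fat cell and not itself a member, gave 5.88, 6.12, 6.23 and 5.89 on the Rap1-/- arrays and 6.48, 6.23, 6.20 and 6.32 on the WT arrays. Its difference was -0.28 ± 0.11 (SE, limma adjusted p = 0.897). As with Cebpa, all 4 Rap1-/- arrays were below the WT mean, while the ranges overlapped. In the deposited values the Pparg difference was -0.11. Of 8 adipocyte markers, all of them also known targets of C/EBPa and PPARg, 7 had a lower mean in Rap1-/-, against 59.6% of all probes. Lep was the 1 with a higher mean (0.63 ± 0.31, SE), and as the dimmest of the 8 it weighed least in their sum. Of these markers 0 were called, and their summed signal was 11.30 to 11.45 in Rap1-/- against 11.41 to 11.72 in WT. Their median difference was -0.18 beside -0.04 over all probes, and 0.04 beside 0.19 under the E1A scaling. In the deposited values it was only -0.01 beside 0.00. The 8 mesothelial markers had a higher mean in 8 of 8, also with 0 called, with a summed signal of 5.27 to 5.58 against 4.08 to 5.46. In these bulk samples fewer fat cells and less RNA per fat cell cannot be told apart, and neither was tested.

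Cebpb encodes an early factor that is induced by cAMP and glucocorticoid signals. Its signal was 3.28, 4.04, 3.56 and 4.39 in Rap1-/- and 3.61, 4.14, 3.57 and 3.91 in WT. The spread between arrays covered 1.11 and the 4 WT values lay inside the Rap1-/- range. Replicates 2 and 4 of both genotypes, which lay at the even positions of the slides, read at least 3.91, and replicates 1 and 3, at the odd positions, at most 3.61. The part of the position in this was not tested. The genotype difference was 0.01 ± 0.25 (SE, limma adjusted p = 0.997, 95% interval -0.56 to 0.58), and it was -0.21 within slide 1 and 0.24 within slide 2.

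Cebpd encodes the other early C/EBP factor. It gave 3.12, 3.77, 3.15 and 3.54 on the Rap1-/- arrays and 3.36, 4.26, 2.82 and 3.17 on the WT arrays. WT held both the highest and the lowest value, and its SD of 0.61 was the largest of any member in either genotype. The difference was -0.01 ± 0.30 (SE, limma adjusted p = 0.998, 95% interval -0.70 to 0.68), -0.37 within slide 1 and 0.35 within slide 2. Its direction rested on single arrays: it was 0.28 without WT replicate 2, 0.0825 without Rap1-/- replicate 1 and 0.0729 without Rap1-/- replicate 3.

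Klf15 encodes a factor that rises late in differentiation. It gave 1.89, 2.04, 1.95 and 1.53 on the Rap1-/- arrays and 2.52, 2.46, 1.84 and 1.68 on the WT arrays. The WT arrays fell into a pair near 2.5 on slide 1 and a lower pair on slide 2, and the Rap1-/- arrays overlapped the lower pair. The difference was -0.27 ± 0.22 (SE, limma adjusted p = 0.903, 95% interval -0.77 to 0.22), with all 4 Rap1-/- arrays below the WT mean. It was -0.52 within slide 1, -0.02 within slide 2 and -0.05 under the E1A scaling, against 0.19 over all probes. Without WT replicate 1 it was -0.14, without WT replicate 2 -0.16, without WT replicate 4 -0.42 and without Rap1-/- replicate 4 -0.16. Markers of skeletal muscle, a tissue that also uses KLF15, had a summed signal of 2.24 to 9.46 in Rap1-/- and 5.16 to 8.24 in WT, and their part in the Klf15 values was not tested.

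Klf4 encodes a factor that acts on Cebpb at the start of differentiation. It gave 2.42, 1.81, 2.61 and 2.17 on the Rap1-/- arrays and 2.08, 2.72, 2.14 and 2.35 on the WT arrays, so the ranges covered nearly the same interval. The difference was -0.07 ± 0.21 (SE, limma adjusted p = 0.975, 95% interval -0.54 to 0.40), and it was -0.28 within slide 1 and 0.15 within slide 2. Stat5a encodes the signal transducer of growth hormone and prolactin receptors. It gave 2.33, 2.88, 2.46 and 2.90 on the Rap1-/- arrays and 2.67, 2.77, 2.72 and 2.87 on the WT arrays. The 4 WT values lay inside the Rap1-/- range, and the SD was 0.29 in Rap1-/- and 0.08 in WT. Its difference was -0.11 ± 0.15 (SE, limma adjusted p = 0.929, 95% interval -0.45 to 0.22) and -0.11 within each slide, and under the E1A scaling it was 0.11 against 0.19 over all probes. Without Rap1-/- replicate 1 it was -0.0093 and without Rap1-/- replicate 4 -0.20. As for Cebpb, replicates 2 and 4 of both genotypes, at the even positions, read at least 2.77 and replicates 1 and 3, at the odd positions, at most 2.72.

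Ebf1 and Zfp423 encode factors of committed fat cell precursors. Ebf1 gave 3.33, 2.58, 2.65 and 2.91 on the Rap1-/- arrays and 2.87, 3.18, 2.81 and 2.51 on the WT arrays, with no order between the genotypes. Its difference was 0.02 ± 0.20 (SE, limma adjusted p = 0.994, 95% interval -0.43 to 0.48), -0.07 within slide 1 and 0.12 within slide 2. Zfp423 was measured by 3 probes. The brightest of them (A_55_P2102335) gave 1.99, 1.66, 1.74 and 1.60 on the Rap1-/- arrays and 1.53, 1.69, 1.81 and 2.03 on the WT arrays. The lowest and the highest of the 8 values were both in WT. The 3 probes rose and fell together over the arrays, with Pearson r of 0.77 to 0.91 and Spearman rho of 0.76 to 0.83 in the 3 pairs (exact permutation p of 0.0029 to 0.0258 for r and 0.0154 to 0.0368 for rho, adjusted over the 3 pairs 0.0088 to 0.0258 and 0.0368), and r was 0.57 to 0.68 without the 2 arrays farthest from the median. A slide held 4 arrays, too few for a correlation of its own. The genotype differences of the 3 probes were -0.02 ± 0.13, 0.08 ± 0.13 and -0.03 ± 0.12 (SE, limma adjusted p from 0.946 to 0.993). Within slide 1 the probes read higher in Rap1-/- by 0.21, 0.35 and 0.21, and within slide 2 they read -0.25, -0.19 and -0.28.

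Gata2 and Gata3 encode the factors that keep precursors from differentiating. Gata2 gave -0.30, -0.76, 0.03 and -0.17 on the Rap1-/- arrays and -0.40, -0.18, 0.17 and -0.13 on the WT arrays, with overlapping ranges. Its difference was -0.17 ± 0.19 (SE, limma adjusted p = 0.922, 95% interval -0.60 to 0.26), -0.24 within slide 1 and -0.09 within slide 2, and 0.06 under the E1A scaling against 0.19 over all probes. Leaving out 1 array at a time gave -0.28 to -0.01, the latter without Rap1-/- replicate 2. Gata3 gave -1.90, -2.08, -2.23 and -2.91 on the Rap1-/- arrays and -2.73, -2.59, -1.96 and -2.46 on the WT arrays. The highest and the lowest of the 8 values were both in Rap1-/-. Its difference was 0.16 ± 0.25 (SE, limma adjusted p = 0.941, 95% interval -0.41 to 0.72), and leaving out 1 array at a time gave 0.03 to 0.37, the latter without Rap1-/- replicate 4. Within slide 1 it was 0.67 and within slide 2 -0.36, the widest gap between the slides of any member. GATA3 also acts in T helper cells, and the summed signal of the T and NK cell markers was 3.07 to 3.36 in Rap1-/- and 3.04 to 3.91 in WT. Their part in the Gata3 values was not tested.

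**Figure D2:**
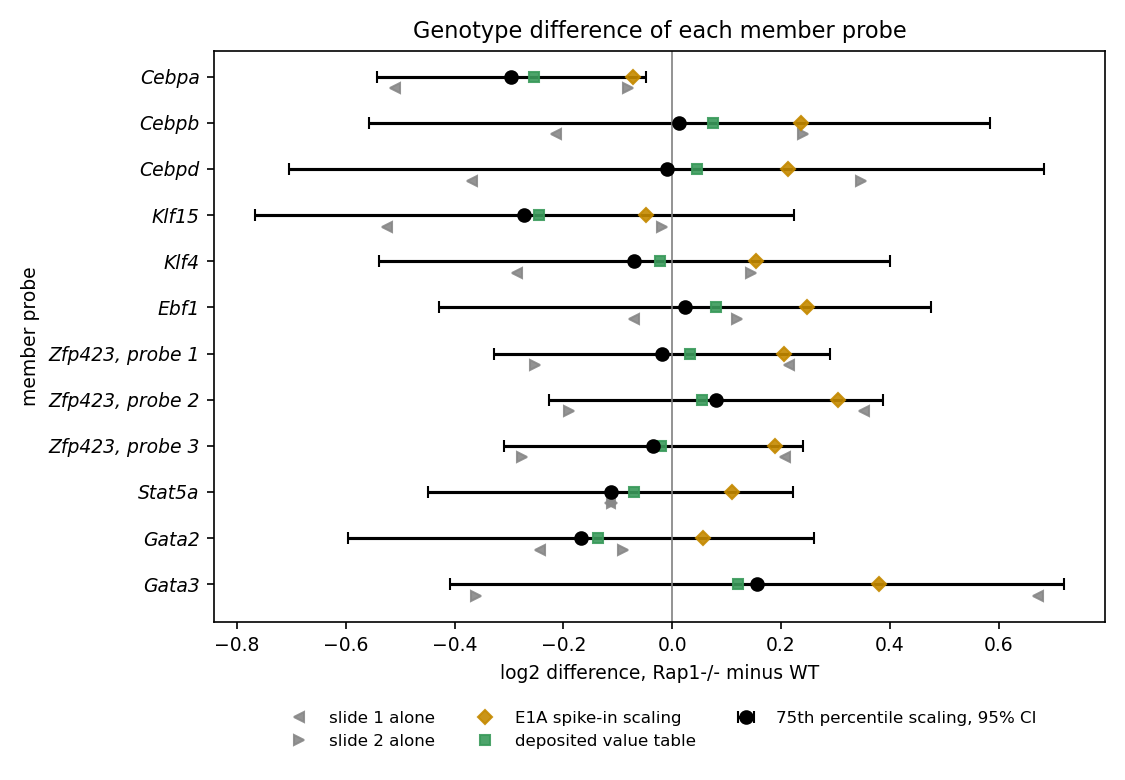
Log2 difference between Rap1-/- and WT (horizontal axis) for each member probe (vertical axis). Black circles with bars are the difference and its 95% interval under the 75th percentile scaling, grey triangles just below them are the differences within slide 1 (pointing left) and slide 2 (pointing right), and diamonds and squares are the E1A scaling and the deposited values; the Cebpa interval, -0.54 to -0.05, is the 1 that does not cross 0.

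Whether the genotype difference of a member differed between the slides was tested, a comparison added after seeing the data. In a limma fit with a term for the difference between the slides in the genotype effect, 0 of the 33982 probes passed at an adjusted p under 0.05 (0% of the probes tested), while 3 of the 12 member probes had an unadjusted p under 0.05 against 3.15% of all probes. The 3 were Gata3 (change of -1.03 ± 0.38 from slide 1 to slide 2, adjusted p = 1) and the 2 dimmer Zfp423 probes (-0.54 ± 0.22 and -0.48 ± 0.20, adjusted p = 1). The Zfp423 probes rose and fell together over the arrays, so the 2 are not separate readings. For Cebpa the change was 0.43 ± 0.18 and for Klf15 0.50 ± 0.25, both toward a smaller difference on slide 2, and for Stat5a it was 0.00 ± 0.33 (SE).

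The SD over the 8 arrays was 0.45 for Cebpd, 0.37 for Gata3 and 0.37 for Cebpb, the 3 widest, and 0.20 for Cebpa, against a median of 0.22 over all probes tested. Over the 45 pairs of member genes, 24 correlations were positive, and after adjustment over the 45 pairs none passed by Pearson's r or by Spearman's rho (smallest adjusted p 0.287 and 0.205, exact permutation test). A single pair had an unadjusted p under 0.05 for r. That pair was Cebpb with Stat5a, with r = 0.85 (exact permutation p = 0.0064, adjusted p = 0.287) and rho = 0.90 (exact permutation p = 0.0046, adjusted p = 0.205). Both genes read higher at the even than at the odd positions of the slides without overlap, the only members that did, and the part of the position in the correlation was not tested. The pair kept r = 0.71 without the 2 arrays farthest from the median Cebpb value and r = 0.89 after the genotype means were removed. Cebpb with Cebpd followed, with r = 0.67 (exact permutation p = 0.0629, adjusted p = 0.756), rho = 0.83 (exact permutation p = 0.0154, adjusted p = 0.346) and r = 0.84 without the 2 farthest arrays. In the opposite direction, Cebpb with Gata3 had r = -0.67 (exact permutation p = 0.0718, adjusted p = 0.756) and rho = -0.71 (exact permutation p = 0.0576, adjusted p = 0.748). Its r was -0.20 without the 2 farthest arrays, so the size of r depended on those samples, and -0.69 after the genotype means were removed. Cebpa with Klf15 had r = 0.61 (exact permutation p = 0.112, adjusted p = 0.756) and rho = 0.40 (exact permutation p = 0.327, adjusted p = 0.834), and r = 0.64 without the 2 farthest arrays.

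**Figure D3:**
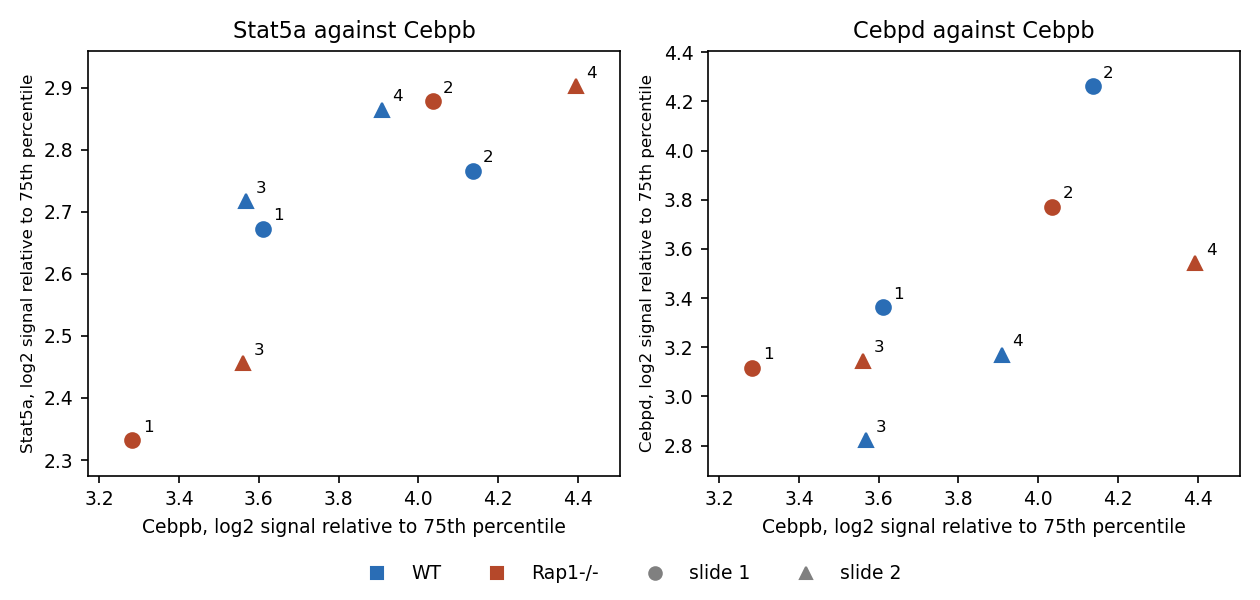
Log2 signal of Stat5a (left) and Cebpd (right) against Cebpb, each relative to the 75th percentile of the array, in the 8 arrays; colours are genotypes, circles slide 1, triangles slide 2, and digits the replicate numbers. Replicates 2 and 4 of both genotypes lie to the right of replicates 1 and 3 (Cebpb at least 3.91 against at most 3.61), with r = 0.85 for Stat5a and 0.67 for Cebpd.

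For the 3 members with the widest spread, the genes whose values over the 8 arrays followed them most closely were sought among 13961 genes, as a description without a test. For Cebpd they were Atp11a (r = 0.96), Slc1a7 (r = 0.96) and Rai2 (r = 0.95). For Gata3 they were Cds1 (r = 0.95), Pik3cd (r = 0.94) and Ifnlr1 (r = 0.94). For Cebpb they were Cdk4 (r = 0.96), Nop58 (r = 0.95) and Lce3b (r = 0.94). The points are 8 arrays that share their slides and scaling, and no p is given.

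The genes around the members were read from lists of known factors and targets, each gene by its brightest tested probe, and lower or higher refers to the mean of Rap1-/- against that of WT. In all 7 lists limma called 0 genes, and the counts with an unadjusted p under 0.05 are given with each list. Over all probes 59.6% had a lower mean in Rap1-/- and 4.83% an unadjusted limma p under 0.05. The lower share was 44.3% under median scaling and 49.2% in the deposited values, so counts of direction depend on the scaling. Of 24 other pro-adipogenic factors, 19 had a lower and 5 a higher mean in Rap1-/-, with a median difference of -0.09 (0.13 under the E1A scaling) and 4 under the unadjusted threshold. Those 4 were Nfia (-0.37 ± 0.14), a factor that opens fat cell enhancers, Egr2 or Krox20 (0.65 ± 0.25), an early inducer of Cebpb, Xbp1 (-0.27 ± 0.11), a factor of the unfolded protein response, and Pparg. Of 28 anti-adipogenic regulators, 16 were lower and 12 higher, at a median of -0.01 (0.21 under the E1A scaling) and 0 under the unadjusted threshold. The nearest to it were Zfpm2 (0.33 ± 0.15), a cofactor of GATA proteins, Tcf7l2 (-0.54 ± 0.25), the Wnt pathway's nuclear effector, and Sox9 (-0.45 ± 0.21). Runx2, the bone factor of the same list, was not well above background on any array.

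Of 30 fat cell targets of C/EBPa and PPARg, 24 had a lower and 6 a higher mean in Rap1-/-, with 6 under the unadjusted threshold. Over all probes 59.6% were lower and 4.83% were under that threshold. Their median was -0.24 beside -0.04 over all probes, -0.09 beside 0.00 in the deposited values, and -0.02 beside 0.19 under the E1A scaling. Dgat1, which makes triglyceride (-0.49 ± 0.13, limma adjusted p = 0.897), Cidec, which enlarges lipid droplets (-0.31 ± 0.10), and Fabp4, the fatty acid binding protein of fat cells (-0.27 ± 0.09), had the smallest unadjusted p. In the deposited values the differences were -0.41 for Dgat1, -0.13 for Cidec and -0.05 for Fabp4. The 8 adipocyte markers are all among these 30 genes, so the 2 counts are not separate readouts. The mesothelial marker values given with Cebpa come from the same arrays, and their part was not tested. Of the 18 amino acid breakdown genes linked to KLF15, 15 were lower and 3 higher, at a median of -0.12 (0.11 under the E1A scaling) and 0 under the unadjusted threshold. The leading ones were Bckdha (-0.24 ± 0.12) and Bcat2 (-0.35 ± 0.20), of branched-chain amino acid breakdown, and Aldh4a1 (-0.35 ± 0.18), of proline breakdown.

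Of 14 glucocorticoid response genes, 8 were lower and 6 higher, at a median of -0.04 (0.18 under the E1A scaling) and 2 under the unadjusted threshold, Cdkn1a (0.80 ± 0.32), a cell cycle inhibitor, and Pdk4 (0.63 ± 0.27), a kinase that shuts off pyruvate dehydrogenase. Zbtb16 came next with 0.36 ± 0.19. Of 15 immediate early and cytokine response genes, the class with which Cebpb and Cebpd are often induced, 13 were higher and 2 lower, with a median of 0.28 (0.50 under the E1A scaling and 0.22 in the deposited values). A single gene of them, Fos (1.19 ± 0.48, limma adjusted p = 0.897), was under the unadjusted threshold, followed by Jun (0.22 ± 0.10) and Btg2 (0.23 ± 0.12). Of the same list, Il6 was well above background on 2 arrays and Egr3 on 0, so neither was tested. Cebpb and Cebpd themselves had differences of 0.01 and -0.01. Of 7 STAT5 targets and receptors, 3 were lower and 4 higher, at a median of 0.00 (0.23 under the E1A scaling) and 0 under the unadjusted threshold, and Pim1, a kinase induced by STAT5 (-0.28 ± 0.16), Bcl6, a repressor (0.10 ± 0.27), and Ghr, the growth hormone receptor (-0.03 ± 0.14), had the smallest unadjusted p.

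**Figure D4:**
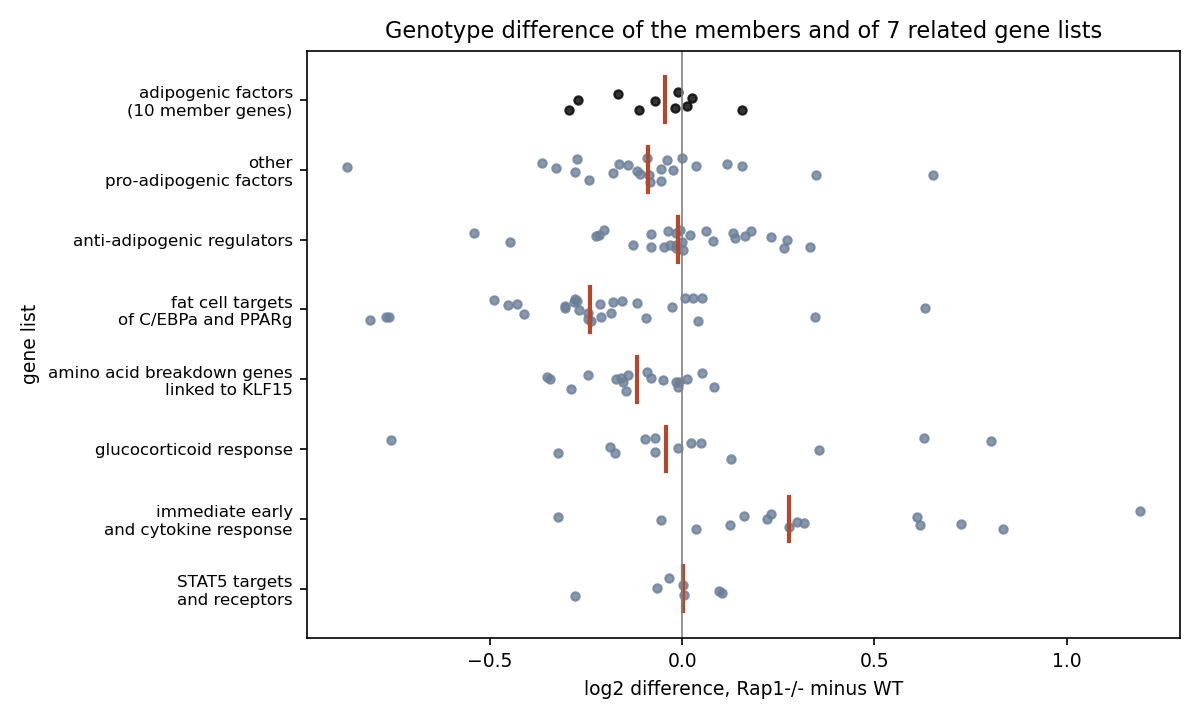
Log2 difference between Rap1-/- and WT (horizontal axis) for the 10 members and for the tested genes of 7 lists (vertical axis), each gene by its brightest probe. Points are genes, jittered vertically, and vertical bars are medians; the members lie between -0.30 and 0.16, the fat cell targets have a median of -0.24 and the immediate early genes of 0.28, and no gene passed the adjusted test.

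Markers of the other cells that the tissue holds were read beside the members, again by the mean of Rap1-/- against that of WT. Over all probes 59.6% were lower, with a median difference of -0.04. The 11 preadipocyte and fibroblast markers, of the cells in which Zfp423 and Ebf1 act on commitment to fat, were lower in 3 and higher in 8, with a median of 0.21 and a summed signal of 9.21 to 9.29 in Rap1-/- and 8.80 to 9.36 in WT. Of 7 macrophage markers 2 were lower and 5 higher, with sums of 6.01 to 6.39 and 5.89 to 6.22. Endothelial markers, cells that use Gata2, were lower in 7 of 8, with sums of 6.59 to 7.32 and 6.96 to 7.25. Their median of -0.0435 was near the -0.0375 over all probes. Mast cell markers, which also go with Gata2, were lower in 3 of 6 and had sums of 1.74 to 2.41 and 2.03 to 2.37, with Ms4a2 not well above background on any array. Smooth muscle and pericyte markers were higher in 6 of 6, with sums of 6.73 to 7.74 and 6.34 to 7.44. Skeletal muscle markers were lower in 7 of 7, but the Rap1-/- sums of 2.24 to 9.46 enclosed the WT sums of 5.16 to 8.24. Epithelial markers were higher in 3 of 4 (sums of 0.19 to 0.48 and -0.63 to 0.00, with Cdh1 not well above background on any array). Epcam was well above background on 1 array and was not tested. Krt7 (0.70 ± 0.23, SE) weighed most in these sums. Its mean signal was -0.39, and that of each other tested epithelial marker was at most -3.15. B cell markers were higher in 3 of 5 (0.32 to 0.92 and 0.56 to 0.78, with Pax5 and Blk not well above background on any array). No gene of these lists was called, and their part in the member values was not tested.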

How the data were processed

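Gonadal fat RNA of 4 Rap1-/- and 4 WT samples was hybridised to 1-colour Agilent mouse arrays. The deposited scanner files (Feature Extraction 10.7.3.1 per the file headers) hold the processed signal as an intensity, background-corrected by the authors' scanner software. The deposited value table holds log2 values, which matched normexp correction with an offset of 50 and quantile normalisation. Here log2 of the processed signal minus the 75th percentile of each array was used, spots of 1 probe were averaged, control spots and 13 probes without a value on every array were left out, and linear models with moderated variances (limma 3.58.1 under R 4.3.3) were fitted to the 33982 probes detected well above background on 4 or more arrays, and p-values were adjusted over all of them by the method of Benjamini and Hochberg. The number of arrays limits the precision. Probes were named through RefSeq transcripts (46.8% of probes); probes whose transcript was not matched stayed unnamed. A gene with several probes was taken by its brightest. Correlations used every ordering of the 8 arrays. Named genes were all members, Pparg, and the 3 genes of each pathway list with the smallest unadjusted p together with any that passed. Also named were the marker genes detected on 0 of 8 arrays and the 3 genes best correlated with each of the 3 members of widest SD. Runx2, Egr3, Il6, Lep, Epcam and Krt7 were named outside this rule, after their values were seen. Alternatives were other scalings, normexp on the median signal (no mean signal column was used), filters, slide and replicate blocks, and leaving out each array. The fit was tested on simulated data. The members and lists were chosen with earlier results of these data known. Figures used matplotlib 3.10.9.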

Additional observations from a re-analysis of the deposited data

How the results depend on the processing

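Under the 22 alternatives computed by a fit over all probes, limma called 0 member probes each time, and the smallest adjusted p of any member was 0.57 (Cebpa without WT replicate 2). Cebpa and Klf15 kept their direction under all of them, over -0.51 to -0.07 and -0.52 to -0.02. The other members had at least 1 setting with the opposite sign. Under median scaling Cebpd was 0.0502 and Zfp423 0.0415, under quantile normalisation 0.0248 and 0.0015, with normexp 0.0436 and 0.0383, and in the deposited values 0.0464 and 0.0331. Under the E1A scaling Cebpd was 0.21, Klf4 0.15, Zfp423 0.21, Stat5a 0.11, Gata2 0.0569 and the median of the member probes 0.20, beside a median of 0.19 over all probes. That scaling moves every probe alike, so Klf4, Stat5a and Gata2 stayed below that median. The mean of its probes gave 0.0094 for Zfp423. Within slide 1 alone Cebpb was -0.21, Ebf1 -0.0703 and Zfp423 0.21, and within slide 2 alone Cebpd was 0.35, Klf4 0.15 and Gata3 -0.36. Leaving out 1 array at a time gave -0.18 to 0.19 for Cebpb, -0.20 to 0.28 for Cebpd, -0.19 to 0.0776 for Klf4, -0.13 to 0.14 for Ebf1 and -0.10 to 0.0695 for Zfp423, and, without a change of sign, -0.28 to -0.0136 for Gata2, 0.0297 to 0.37 for Gata3, -0.20 to -0.0093 for Stat5a, -0.42 to -0.14 for Klf15 and -0.36 to -0.26 for Cebpa. The cause of these turns was not tested. The count over all probes, 2, was 3 with normexp, in the deposited values and with trended robust variance, 1 with the filter on all 8 arrays, with the brightest probe or the mean of probes per gene and within slide 1, and 0 within slide 2, where fewer arrays entered. With the replicate block 2 probes and 0 members were called, and the median of the member probes was -0.03. Over all probes tested, samples with the same replicate number did not deviate together from their genotype means (correlations of -0.21 to -0.10). For single members the block moved the SE both ways, from 0.25 to 0.16 for Cebpb and from 0.11 to 0.13 for Cebpa. The numbers also go with slide and position, so structure of that kind remains in them. The count of correlated pairs was 0 also with the genotype means removed. All member probes were well above background on all 8 arrays.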
